A study of Mus musculus with 4 samples.

Results

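Collagens, laminins and integrins, the genes for the extracellular matrix and for the receptors by which cells hold on to it, were followed in sorted EGFP and Tomato cells of mouse trachea and stomach. Members were the protein-coding genes whose symbols name a collagen chain, a laminin chain or an integrin subunit, together with Dcn, Lum, Fn1 and Sparc, which encode abundant proteins of connective tissue. This gave 85 genes among the 48587 gene symbols listed, namely 44 collagens, 11 laminins, 18 integrin alpha subunits, 8 integrin beta subunits and the 4 matrix genes. By their known roles, 21 were set apart as epithelial adhesion genes and 47 as stromal matrix genes, while 7 stromal integrins and 10 blood cell integrins were kept separate.

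Laminins, type IV collagens and their partners form the basement membrane, the thin sheet on which an epithelium sits. Epithelial cells anchor to it through integrins, and basal cells of the airway do so through hemidesmosomes, plaques that join keratin filaments to laminin. Fibrillar collagens, decorin, lumican and osteonectin are made largely by fibroblasts and other cells of the connective tissue underneath.

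All cells came from C57BL/6 mice carrying Tas2r143-CreERT2;Rosa26flox-mT-stop-flox-mG. Every group thus carried both transgenes, and every mouse received tamoxifen for 5 days and was analysed 5 days after the last dose. CreERT2 was driven by the promoter of the bitter taste receptor gene Tas2r143 on a bacterial artificial chromosome, and recombined cells, with any progeny, exchanged Tomato for EGFP. The EGFP gate asked for EGFP and no uptake of the dead-cell dye DAPI, whereas Tomato cells, also DAPI-negative, had to carry the epithelial surface protein EpCAM and to lack EGFP, so that only the Tomato gate included EpCAM. Cells were pooled from 3 mice of 1 transgenic line into 1 library per sort and tissue, which gave 4 libraries in all. With 1 library per group no difference between these groups could be tested, and the 95% intervals below are exact binomial intervals on estimated reads that cover counting error only, because PCR copies could not be told from separate molecules. A lower value in bulk RNA cannot tell fewer expressing cells from less RNA per cell.

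The title and the tissue field of every sample name opposite tissues, and the tissue of the title was used because the data columns carry the titles. Markers fitted that choice in part. The 3 club cell genes summed to 483341 normalized counts in the Tomato library titled trachea and to 69 in the one titled stomach, and the 8 gastric genes to 53433 and 1950297, although the gastric lipase gene Lipf went the other way, at 53408 and 0. Normalized counts, the deposited reads per gene divided by a library factor, summed to between 9.98 and 15.4 M per library. Judged from the spacing of low values, 6.2 M reads had been assigned to genes in the tracheal EGFP library and 17.3 to 18.9 M in the other 3, and 1 read was worth 1.61 normalized counts in the former and 0.786 to 0.816 in the latter. A member absent from the tracheal EGFP library was therefore less firmly absent than elsewhere: the floor of 3 reads lay at 4.83 normalized counts there.

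Of the 85 members, 25 reached 500 normalized counts in at least 1 library, 38 reached 50 but not 500 and 22 stayed under 50, with a highest value of 43. In the tracheal EGFP library 25 members were above 0 and 3 reached 500, and in the tracheal Tomato library 54 and 18 did. The gastric EGFP library had 44 above 0 and 3 at 500, and the gastric Tomato library 63 and 13. The members listed at 0 in every library were Col10a1, Col26a1, Col6a5, Col6a6, Itgad, Lama1 and Lamc3, while 13 members were above 0 in all 4.

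**Figure D1:**
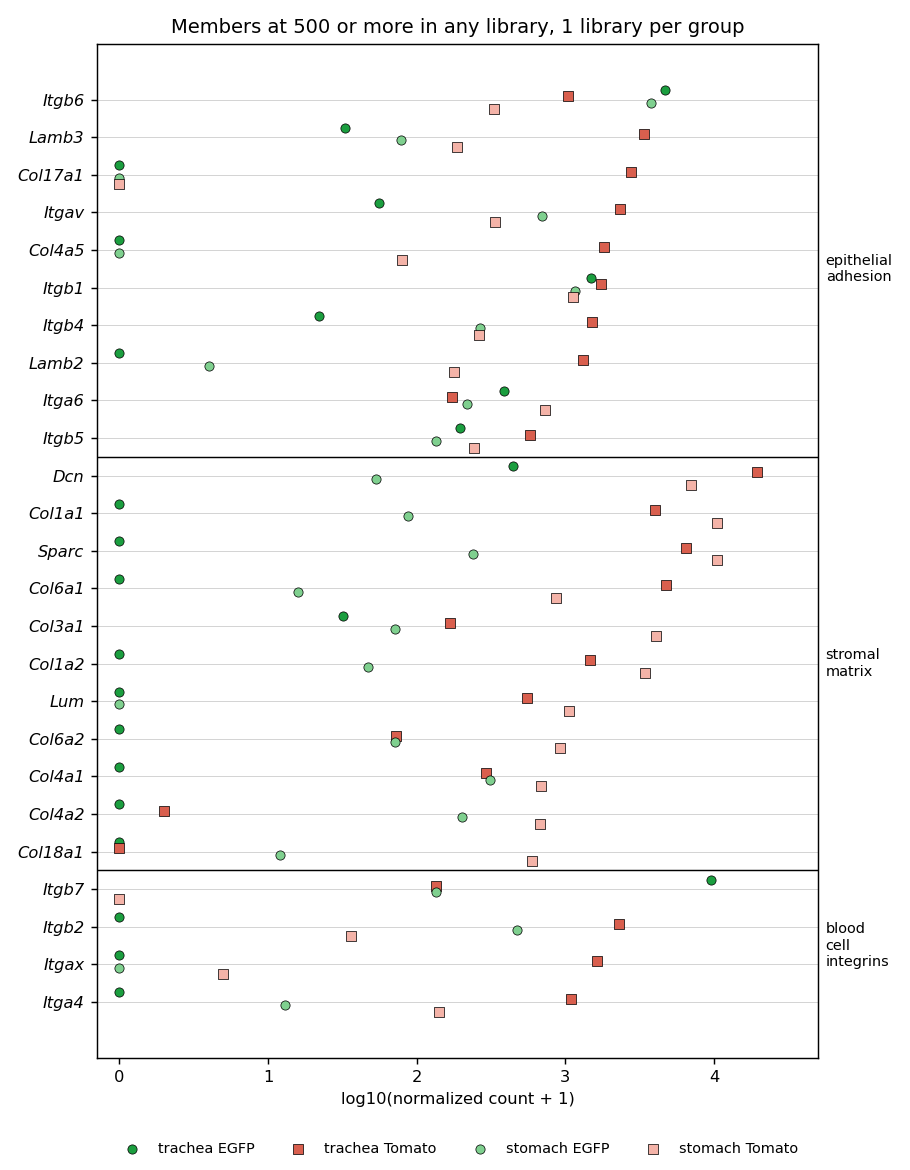
Normalized count, as log10(value + 1), of the 25 members at 500 or more in any library, in each of the 4 libraries (circles EGFP, squares Tomato; dark trachea, light stomach; 1 library per group, no error bars). Symbols of 1 gene are offset vertically. The Tomato squares lie to the right of the EGFP circle of the same tissue for the upper stromal genes, from Dcn to Col6a2, whereas Itgb6 and Itgb7 show the opposite order.

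Relative to 1 M normalized counts of a library, epithelial adhesion genes summed to 707.1 per M in the tracheal EGFP library and 1211 in the tracheal Tomato library, and to 490.6 and 334.3 in the gastric EGFP and Tomato libraries. Stromal matrix genes summed to 112.8 and 2613.7 per M in the trachea and to 129.8 and 2714.9 in the stomach. The Tomato libraries thus held far more stromal matrix RNA than the EGFP libraries in both tissues, although the Tomato cells were the ones gated on EpCAM. The epithelial sum was lower in EGFP than in Tomato cells of the trachea and higher in those of the stomach. Without Itgb6 it was lower in EGFP cells of both tissues, at 242.2 and 1140.9 per M in the trachea and at 213.2 and 313.0 in the stomach. Epcam itself was at 5871 and 1450 in the tracheal and at 4648 and 1751 in the gastric EGFP and Tomato libraries.

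Few genes carried each sum. Itgb6 alone made up 65.7% of the epithelial sum in the tracheal and 56.6% in the gastric EGFP library, against 5.79% and 6.36% in the Tomato libraries. In the tracheal Tomato library Dcn, Sparc and Col6a1 made up 78.9% of the stromal sum, and in the gastric Tomato library Col1a1, Sparc and Dcn made up 66.7%.

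Summed fibroblast, smooth muscle and endothelial markers were also higher in Tomato cells, though not for every marker. Their part in the stromal sum was not tested. The 6 fibroblast markers Pdgfra, Pdgfrb, Dpt, Thy1, Pi16 and Twist2 summed to 124 and 282 normalized counts in the tracheal EGFP and Tomato libraries and to 4 and 1881 in the gastric ones, with 2, 4, 2 and 5 of them above 0 and Twist2 at 0 throughout. Per M the tracheal fibroblast sums were 12.4 and 19, much closer to each other than the tracheal stromal matrix sums of 112.8 and 2613.7. Pdgfrb went against its list in the trachea, at 121 in EGFP and 11 in Tomato cells. The 5 smooth muscle markers summed to 89, 1128, 292 and 3141, with Des and Cnn1 at 0 in both tracheal libraries. The 6 endothelial markers summed to 2, 3665, 470 and 559 in the same order, with Vwf at 0 in all but the gastric Tomato library. In the stomach that list was nearly level, at 34.5 and 36.2 per M, and Emcn was higher in EGFP cells, at 410 against 161. Of the 6 cartilage markers, Acan, Comp and Matn1 were at 0 in all 4 libraries and Matn3 reached 9, in gastric Tomato cells. Chad stood at 0, 3811, 61 and 128 and Sox9 at 38269, 3777, 36316 and 9002 in the same order. Through Sox9 the summed list was higher in EGFP cells. It stood at 3834.8 and 510.4 per M in tracheal, and at 2669.3 and 592.2 in gastric, EGFP and Tomato cells.

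**Figure D2:**
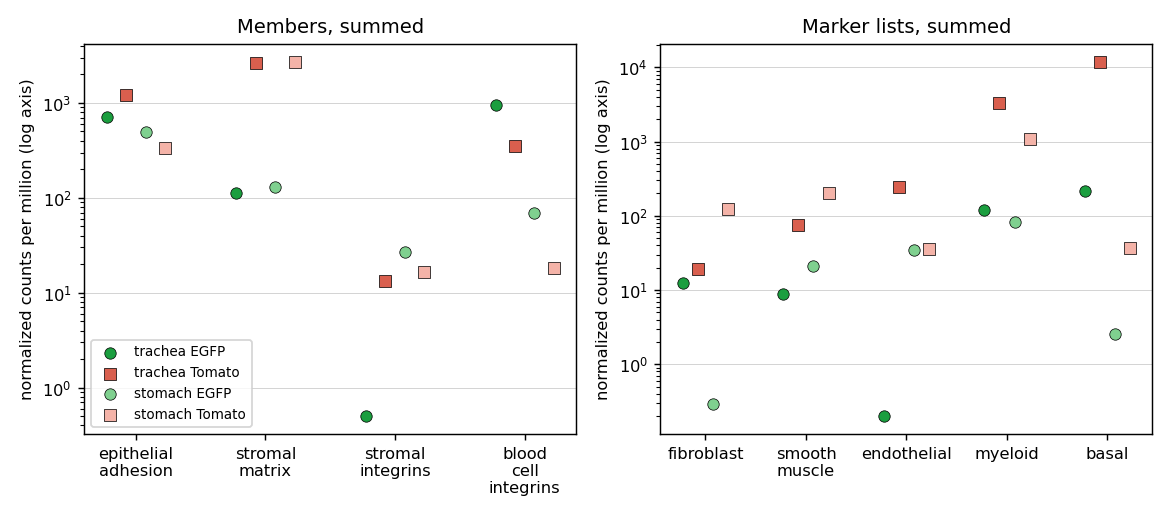
Summed normalized counts per M, on a log axis, of the 4 classes of members (left) and of 5 marker lists for other cells (right) in each library (circles EGFP, squares Tomato; 1 library per group, no error bars). Stromal matrix stood at 2613.7 and 2714.9 per M in the Tomato libraries and at 112.8 and 129.8 in the EGFP libraries, and the smooth muscle and myeloid lists were higher in Tomato in both tissues.

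A gene was counted as higher or lower at a change of 4-fold, log2((A + 1)/(B + 1)) of 2 or more or of -2 or less, and with the higher of the 2 libraries at 50 normalized counts or above. In the trachea 43 members reached that level in either library, and 5 were higher in EGFP cells, 34 lower and 4 neither, where 25.2% of the 10523 genes measured were higher and 32.4% lower. In the stomach 50 members did, with 7 higher, 32 lower and 11 neither, where 14.8% of 11094 genes were higher and 22.4% lower. The median log2 ratio of these members was -6.15 in the trachea and -5.29 in the stomach, beside -0.32 and -0.15 over all genes measured. With values of 0 raised to the floor of 3 reads the medians were -4.34 and -4.58. Members that entered through a high value in 1 library alone had to differ, and in 26 of the 43 in the trachea and 18 of the 50 in the stomach the lower library was at 0.

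Of the epithelial adhesion genes, 15 were measured in the trachea, with 1 higher, 10 lower and 4 neither (median log2 ratio -5.38, or -3.86 with zeros at the floor). In the stomach 16 were measured, with 1 higher, 8 lower and 7 neither (median -2.15, the same with zeros at the floor). That gastric median turned to 0.54 when a level of 500 was required and lay at -1.50 with no minimum and -1.48 with libraries thinned to equal depth. Of the stromal matrix genes, 23 were measured in the trachea with 3 higher and 20 lower, and 27 in the stomach with 2 higher, 21 lower and 4 neither (medians -6.46 and -5.88, or -4.34 and -4.87 with zeros at the floor). The tracheal genes within the limits were Itga3, Itga6, Itgb1 and Itgb5.

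Itgb6, the beta subunit of an epithelial integrin that binds fibronectin and activates latent TGF-beta, was the highest epithelial member in both EGFP libraries. It lies on chromosome 2 (GRCm38, 60598292 to 60722643, minus strand) and stood at 4639 in tracheal EGFP, 1042 in tracheal Tomato, 3781 in gastric EGFP and 328 in gastric Tomato cells. Both EGFP libraries were above both Tomato libraries. The ratio EGFP/Tomato was 4.45 in the trachea (95% interval 4.17 to 4.76) and 11.5 in the stomach (10.4 to 12.8).

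Its only known alpha partner, Itgav, followed another order, at 55, 2324, 690 and 336 in tracheal EGFP, tracheal Tomato, gastric EGFP and gastric Tomato cells. Itgav was 42.3-fold lower in tracheal EGFP than in tracheal Tomato cells (30.3 to 61.4) and 2.05-fold higher in gastric EGFP than in gastric Tomato cells (1.82 to 2.31). Per kb of exon, Itgb6 exceeded Itgav 127-fold in tracheal EGFP cells and 8.28-fold in gastric EGFP cells, while in the Tomato libraries the ratio was 0.677 in the trachea and 1.47 in the stomach.

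Itgb1, the beta subunit shared by many matrix receptors, varied least among the 25 members that reached 500, its highest value being 1.53 times its lowest. Its values were 1483, 1725, 1159 and 1130 in the same order of libraries, a ratio of 0.86 in the trachea (0.795 to 0.929) and 1.03 in the stomach (0.953 to 1.11). Itga3, the alpha subunit of a laminin receptor with Itgb1, stood at 140, 182, 189 and 93, and its ratio was 0.769 in the trachea and 2.03 in the stomach. Itgb5, another partner of Itgav, stood at 195, 575, 134 and 240 and was lower in both EGFP libraries, 2.95-fold in the trachea and 1.79-fold in the stomach. None of these 3 genes passed the 4-fold limit in either tissue. Other epithelial integrins were scarce: Itga2 did not exceed 4 normalized counts and Itgb8 reached 26, in gastric EGFP cells.

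Several hemidesmosome genes lay further apart between the sorts in the trachea than in the stomach, a difference that was not tested. Col17a1, the transmembrane collagen of hemidesmosomes (chromosome 19, 47646344 to 47692094, minus strand), was at 2768 in tracheal Tomato cells and at 0 in the other 3 libraries, at least 573-fold lower in tracheal EGFP cells. Lamb3, the beta chain of the laminin that anchors hemidesmosomes, stood at 32, 3398, 77 and 186 in tracheal EGFP, tracheal Tomato, gastric EGFP and gastric Tomato cells. It was 106-fold lower in EGFP cells of the trachea (68.2 to 173) and 2.42-fold lower in those of the stomach (1.90 to 3.09).

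Itgb4, the hemidesmosomal integrin subunit, stood at 21 in tracheal EGFP and 1498 in tracheal Tomato cells, but at 265 and 260 in the gastric ones. It was thus 71.3-fold lower in tracheal EGFP cells (41.8 to 135), whereas the gastric ratio of 1.02 had an interval of 0.871 to 1.19. Itga6, its alpha partner, went the other way in the trachea, at 382 in EGFP and 171 in Tomato cells. In the stomach it was lower in EGFP cells, at 215 and 722. Neither change passed the 4-fold limit. Per kb of exon, Itga6 exceeded Itgb4 14.1-fold in tracheal EGFP cells, and Itgb4 exceeded Itga6 11.3-fold in tracheal Tomato cells. Itga6 also pairs with Itgb1, and the part of that pairing in these values was not tested.

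Other hemidesmosome genes were low. Lama3, the alpha partner of Lamb3, was at 53 in tracheal Tomato cells and at 0 elsewhere, so that in those cells Lamb3 exceeded it 104-fold per kb of exon. Col7a1, which forms anchoring fibrils, was at 69 in gastric Tomato, 40 in tracheal Tomato and 1 in gastric EGFP cells. In total, 5 of 6 measured hemidesmosome genes were lower in tracheal EGFP cells and 2 of 5 in gastric EGFP cells. Of all genes measured, 32.4% were lower in the trachea and 22.4% in the stomach. The hemidesmosome genes lower in the trachea were all under the minimum of 50 in EGFP cells, as was Col7a1 in the stomach. They entered through the Tomato library alone, so their direction, though not its 4-fold size, was fixed by entry.

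Basal cells use hemidesmosomes, and basal cell markers went with some of these genes. The 6 basal markers summed to 177142 in tracheal Tomato cells, against 2173 in tracheal EGFP, 35 in gastric EGFP and 561 in gastric Tomato cells, with Krt14 at 0 outside tracheal Tomato cells. Ngfr was at 26 in tracheal EGFP and 36 in tracheal Tomato cells, and Aqp3 gave 514 of the gastric Tomato sum. Against the basal sum, Itga6 was at 382 in tracheal EGFP and 171 in tracheal Tomato cells. In the stomach Itgb4 was level, at 265 and 260. The part of basal cells in the hemidesmosome differences was not tested. Of 5 partners of the hemidesmosome measured in the trachea, Krt14 (0 in EGFP and 15835 in Tomato cells) and Krt5 (109 and 18168), the keratins attached to it, were lower. The linker Plec, at 13360, 17695, 10601 and 7357 in the 4 libraries, Dst and Cd151 passed no limit in either tissue, with log2 ratios of -0.41, 0.66 and -0.27 in the trachea and 0.53, -1.59 and 0.68 in the stomach.

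Epithelial basement membrane genes were lower in EGFP cells wherever they were measured, 4 of 4 in the trachea and 6 of 6 in the stomach. Of all genes measured, 32.4% and 22.4% were lower. Except for Lamb1, at 53 in gastric EGFP cells, the basement membrane genes reached the minimum of 50 through the Tomato library alone. Their direction, though not its 4-fold size, was therefore fixed by entry. Col4a5, a chain of epithelial type IV collagen, stood at 1804 in tracheal and 79 in gastric Tomato cells and at 0 in both EGFP libraries, at least 374-fold and 33.5-fold lower. Col4a6, its partner on the X chromosome, stood at 469 and 461 in the Tomato libraries and again at 0 in EGFP cells. Lamb2, a laminin beta chain, stood at 0, 1306, 3 and 176 in tracheal EGFP, tracheal Tomato, gastric EGFP and gastric Tomato cells.

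The remaining laminin chains were lower in level. Lama5, the alpha chain most typical of mature epithelium, stood at 45, 300, 0 and 104 and was 6.67-fold lower in tracheal EGFP cells and at least 44.1-fold lower in gastric EGFP cells. Lamb1, the alternative to Lamb2, was at 0 in both tracheal libraries and at 53 and 410 in gastric EGFP and Tomato cells. Lamc1, the common gamma chain, was at 6 in gastric EGFP and 74 in gastric Tomato cells. In the trachea it stayed under the minimum of 50 and went the other way, at 40 in EGFP and 2 in Tomato cells.

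Among the stromal genes, Dcn, which encodes the collagen-binding proteoglycan decorin, was the highest member of all (chromosome 10, 97479609 to 97518143). It stood at 444 in tracheal EGFP, 19397 in tracheal Tomato, 52 in gastric EGFP and 7010 in gastric Tomato cells. Both Tomato libraries lay far above both EGFP libraries, 43.7-fold in the trachea (38.8 to 49.3) and 135-fold in the stomach (106 to 175). Sparc, the collagen-binding glycoprotein osteonectin, stood at 0, 6493, 237 and 10441. It was at least 1344-fold lower in EGFP cells of the trachea and 44.1-fold lower in those of the stomach (39.2 to 49.5).

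Type I collagen, the main fibre of connective tissue, followed the same order. Col1a1 stood at 0, 3982, 86 and 10478 in tracheal EGFP, tracheal Tomato, gastric EGFP and gastric Tomato cells, at least 824-fold and 122-fold (101 to 149) lower in EGFP cells of trachea and stomach. Col1a2, the second chain of the same helix, stood at 0, 1454, 46 and 3419, at least 301-fold and 74.3-fold lower. Per kb of exon, Col1a1 exceeded Col1a2 5.19-fold in tracheal Tomato and 3.54-fold in gastric EGFP cells, and 275.1 per kb of Col1a2 stood beside 1596.5 of Col1a1 in gastric Tomato cells, so Col1a1 led wherever both were detected.

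Among the other fibrillar collagens and matrix genes, Col3a1, which forms fibres in soft tissue, stood at 31, 166, 70 and 4043. It was 5.36-fold lower in tracheal EGFP cells (3.38 to 9.19) and 57.8-fold lower in gastric EGFP cells (46.9 to 72.1). Lum, encoding the fibril-spacing proteoglycan lumican, stood at 552 and 1048 in the tracheal and gastric Tomato libraries and Fn1, encoding fibronectin, at 374 and 307, and both were at 0 in the EGFP libraries. Over all genes measured, 32.4% were lower in EGFP cells of the trachea and 22.4% in those of the stomach. All 4 measured fibrillar collagens in the trachea, all 6 in the stomach and all 4 matrix genes in both tissues were lower in EGFP cells. Of these, only Dcn, at 444, reached the minimum of 50 in tracheal EGFP cells. In gastric EGFP cells only Col1a1 (86), Col3a1 (70), Dcn (52) and Sparc (237) did. The others entered through the Tomato library alone, so their direction, though not its 4-fold size, was fixed by entry.

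Type VI collagen, which forms microfibrils around cells, was uneven among its chains. Col6a1 stood at 0, 4761, 15 and 857 in tracheal EGFP, tracheal Tomato, gastric EGFP and gastric Tomato cells, and Col6a2 at 0, 72, 70 and 916. Col6a3, the largest chain, was at 0 in tracheal Tomato and at 120 in gastric Tomato cells. Per kb of exon, Col6a1 exceeded Col6a2 126-fold in tracheal Tomato but 1.78-fold in gastric Tomato cells, so the tracheal library carried 1 chain almost alone.

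Col18a1, a basement membrane collagen from which endostatin is cleaved, was at 592 in gastric Tomato and 11 in gastric EGFP cells and at 0 in the trachea. Exceptions to the stromal direction were few. Col22a1, a collagen of tissue junctions (chromosome 15, 71795795 to 72034227, minus strand), was at 314 in tracheal EGFP cells and at 0 in the other 3 libraries, at least 129-fold above tracheal Tomato cells. Col12a1, a fibril-associated collagen, stood at 156, 3, 0 and 18 in tracheal EGFP, tracheal Tomato, gastric EGFP and gastric Tomato cells, a tracheal ratio of 52.0 with an interval of 18.3 to 181. Together with Dcn, these 2 genes made up 81.2% of the small stromal sum of tracheal EGFP cells.

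Cartilage collagens also held exceptions. Col9a3, a chain of type IX collagen, stood at 101, 0, 212 and 109 in the 4 libraries and was at least 41.6-fold higher in tracheal EGFP than in Tomato cells. Its partner Col9a1 was at 75 in gastric EGFP and 7 in gastric Tomato cells, and Col9a2 was at 98 in tracheal Tomato cells and at 0 elsewhere. No library held all 3 chains of type IX collagen. Col2a1, the main collagen of cartilage, was at 56 and Col11a1 at 188 in tracheal Tomato cells.

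Type IV collagens a1 to a4 showed another pattern. Their genes lie as head-to-head pairs, as do Col4a6 and Col4a5 on the X chromosome, with 1308 bases between the starts. Col4a1 and Col4a2, the chains of the ubiquitous basement membrane network, start within 22 overlapping bases on chromosome 8 by the GENCODE annotation. In gastric cells they ran together, Col4a1 at 312 in EGFP and 686 in Tomato cells and Col4a2 at 200 and 670. In tracheal Tomato cells Col4a1 was at 289 and Col4a2 at 1, a ratio per kb of exon of 256, whereas the gastric ratios were 1.38 and 0.908. Both were at 0 in tracheal EGFP cells.

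Col4a3 and Col4a4, chains of a specialised network known from kidney and lung, were seen in the stomach alone. Col4a3 was at 3 in EGFP and 216 in Tomato cells, and Col4a4 at 200 in EGFP and 11 in Tomato cells. The EGFP/Tomato ratio of Col4a4 was 18.2 (10.8 to 35.8), and Col4a3 was 72.0-fold lower in EGFP cells (26.6 to 254), so partner genes at 1 locus went in opposite directions. The annotated starts, Col4a4 at 82586849 on the minus strand and Col4a3 at 82586921 on the plus strand of chromosome 1, leave 71 bases between them. That interval is shown because both genes would read outward from it. From RefSeq GRCm38.p6, chr1:82586850-82586920, minus strand (5′ to 3′ toward Col4a4), it reads:
Col4a3 and Col4a4: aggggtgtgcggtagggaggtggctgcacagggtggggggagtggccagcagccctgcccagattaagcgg
Its GC content was 69%. Letters were searched on both strands of this window and, as background, in the 71 bases before the start in 27025 mouse promoters. The CCAAT box, spelled CCAAT, had 0 matches here and occurred in 13.9% of the promoters. The GC box, spelled GGGCGG, had 0 matches and occurred in 21.2%. The TATA box, spelled TATAAA, had 0 matches and occurred in 4.72%.

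**Figure D3:**
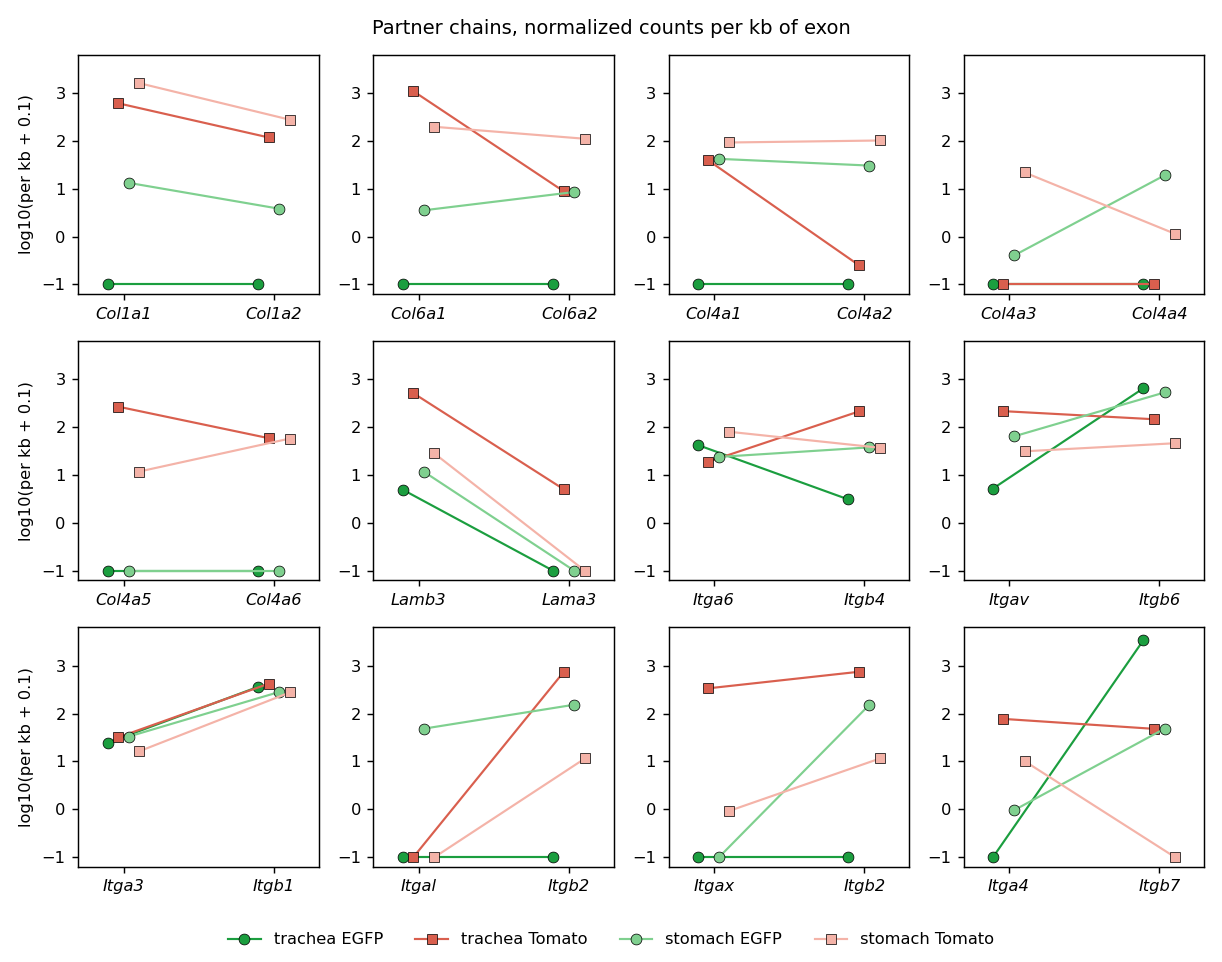
Normalized counts per kb of exon, as log10(value + 0.1), of 12 pairs of partner chains in each of the 4 libraries (circles EGFP, squares Tomato; lines join the chains of 1 library, libraries are offset sideways, and 0 is drawn at -1). Lines for Col1a1 and Col1a2 fall from the former to the latter in the 3 libraries above 0, and those for Col4a3 and Col4a4 cross, at 0.301 and 18.8 per kb in gastric EGFP and 21.7 and 1.04 in gastric Tomato cells.

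Blood cell integrins summed to 955.6 and 348.1 normalized counts per M in tracheal EGFP and Tomato cells and to 69.8 and 18.4 in the gastric ones. Itgb7, a beta subunit of lymphocyte homing receptors (chromosome 15, 102215995 to 102231944, minus strand), stood at 9534 in tracheal EGFP, 133 in tracheal Tomato, 134 in gastric EGFP and 0 in gastric Tomato cells. It was 71.7-fold higher in EGFP cells of the trachea (61.5 to 84.4) and at least 54.7-fold higher in those of the stomach. Neither of its alpha partners was higher in EGFP cells. Itga4 stood at 0, 1083, 12 and 141 and Itgae at 0, 15, 12 and 59 in the same order of libraries.

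Itgb2, the beta subunit common to leukocyte integrins, went in opposite directions. It stood at 0 in tracheal EGFP and 2286 in tracheal Tomato cells, but at 469 in gastric EGFP and 35 in gastric Tomato cells. EGFP cells were thus at least 473-fold lower in the trachea and 13.4-fold higher in the stomach (9.81 to 18.7). Its alpha partners split the same way. Itgax, of myeloid cells, was at 1623 in tracheal Tomato, 4 in gastric Tomato and 0 in both EGFP libraries, and Itgal, of lymphocytes, was at 318 in gastric EGFP cells and at 0 elsewhere.

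Leukocyte markers followed these integrins in some libraries and went against them in others, and their part was not tested. The 8 myeloid markers summed to 1190, 48463, 1134 and 16671 in tracheal EGFP, tracheal Tomato, gastric EGFP and gastric Tomato cells, with Adgre1 at 0 in all but the last. The 7 lymphoid markers summed to 18044, 999, 680686 and 36871, most of it Igkc, an immunoglobulin light chain, while Cd3e and Ms4a1 were at 0 in all 4 and Cd79a was at 791 in gastric EGFP and 20 in gastric Tomato cells. Ptprc, the pan-leukocyte antigen, stood at 338, 1, 1051 and 768. In the stomach the myeloid sum was thus lower in EGFP cells, where Itgb2 was higher, and in the trachea Ptprc was higher in EGFP cells, where Itgb2 was at 0. The lymphoid sum was highest in gastric EGFP cells, whereas Itgb7 was highest in tracheal EGFP cells.

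Stromal integrins were low. Itga10, a collagen receptor, was at 351 in gastric EGFP and 22 in tracheal Tomato cells and at 0 in the other libraries, and 33.5% of its exon bases lie under other genes, so its count is uncertain. Itga5, the fibronectin receptor subunit, was at 183 in gastric and 7 in tracheal Tomato cells and at 0 in EGFP cells. Itga9 reached 68 in tracheal Tomato cells, and Itga1, Itga7, Itga8 and Itga11 did not exceed 37.

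Of 30 members measured in both tissues, 17 were lower in EGFP cells of both, 2 were higher in both, 1 was lower in the trachea and higher in the stomach, 1 was higher in the trachea alone, 5 were lower in the trachea alone and 4 passed no limit in either. Over all genes measured in both tissues, 827 of 8594 were lower in both and 442 higher in both. The 17 were 11 stromal matrix genes, 5 epithelial adhesion genes, among them Col4a5, Col4a6, Lama5 and Lamb2, and Itga4. Of these 17 genes only Dcn, at 444, reached the minimum of 50 in tracheal EGFP cells, and most did not reach it in gastric EGFP cells. Where a gene was under 50 in EGFP cells it entered through the Tomato library alone. Its direction there, though not its 4-fold size, was fixed by entry. The 2 higher in both were Itgb6 and Itgb7. Col15a1, Col4a1, Itgav, Itgb4 and Lamb3 were lower in the trachea alone.

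**Figure D4:**
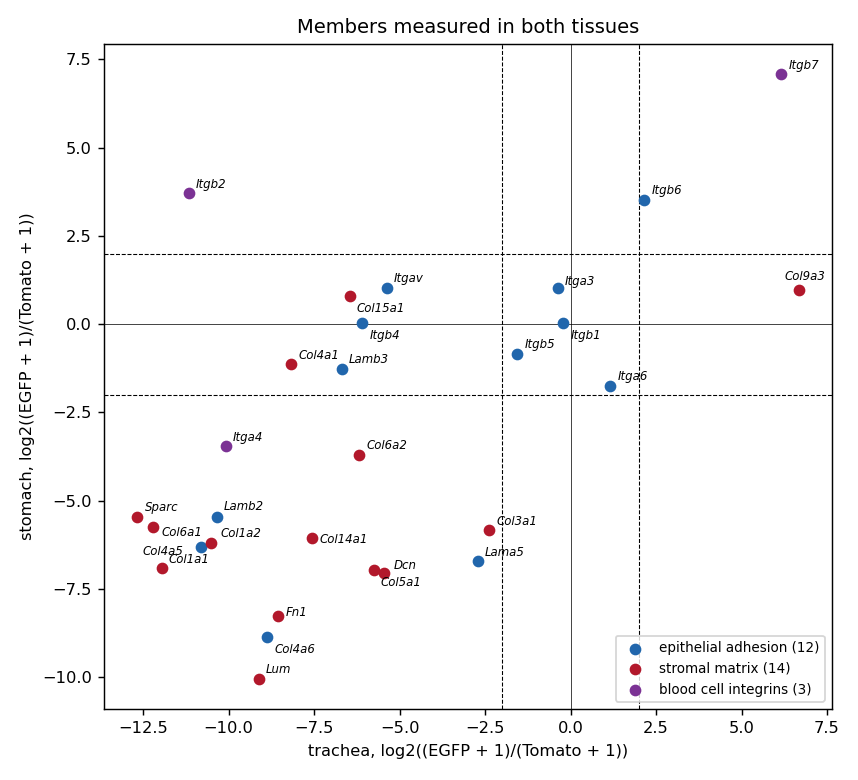
Log2((EGFP + 1)/(Tomato + 1)) in the trachea (x axis) and stomach (y axis) of 29 of the 30 members measured in both tissues, 1 point per gene, coloured by class, with 1 library per group and no error bars. Dashed lines mark the limits at 2 and -2. The lower left holds 16 of the members lower in both tissues, Itgb6 and Itgb7 lie at the upper right, and Itgb2 stands alone at the upper left.

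Both tissues together allowed a test with the tissue as a block, which left 1 residual degree of freedom. The SE and p of a gene therefore leaned on a variance trend fitted over all genes. They did not measure a spread between mice. By limma with Benjamini-Hochberg adjustment over 13023 genes, 6 of the 63 members tested passed an adjusted p of 0.05, beside 2.33% of all genes tested. Dcn (log2 ratio -6.25, SE 0.95, limma adjusted p = 2.651e-08), Sparc (-9.06, SE 1.38, 3.37e-08), Col1a1 (-9.44, SE 1.55, 4.478e-07), Col1a2 (-8.35, 0.001418) and Col6a1 (-8.98, 0.002174) were lower in EGFP cells, each in 2 of 2 tissues. Col1a2, at 0 and 46 in tracheal and gastric EGFP cells, and Col6a1, at 0 and 15, reached the minimum of 50 in Tomato libraries alone. Their lower direction was thus tied to entry and is no separate support. Itgb7 was higher in EGFP cells (6.61, limma adjusted p = 0.03693), in 2 of 2 tissues. Lum (0.05839) and Itgb6 (2.84, 0.06491) missed the limma threshold. No epithelial adhesion gene was among the 6. The counts of 5 lower and 1 higher rested on the trend, the block and the minimum level. Without the trend, without the block or with no minimum level, no gene passed, members included. Then 19, 12 and 14 members respectively had an unadjusted limma p under 0.05, or 30.2%, 19% and 17.9% of the members tested. Over all genes tested those shares were 7.49%, 5.96% and 3.97%.

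Between the tissues, in EGFP cells 27 members were measured, 4 higher in the trachea, 14 lower and 9 neither, where 19.8% of 10337 genes were higher and 28.3% lower. Col12a1, Col22a1, Dcn and Itgb7 were the 4 higher in the trachea. Dcn was 8.54-fold higher (6.53 to 11.4) and Itgb7 71.2-fold (61.3 to 83.6). Itgb6, Itgb1, Itga3, Itga6 and Itgb5 were within the limits, with Itgb6 at 1.23 times its gastric level in the trachea (1.17 to 1.29). Itgav was 12.5-fold (8.95 to 18.3) and Itgb4 12.6-fold (7.30 to 24.0) lower in tracheal than in gastric EGFP cells.

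In Tomato cells 57 members were measured, 19 higher in the trachea, 17 lower and 21 neither, where 20.3% of 11338 genes were higher and 27.9% lower. The epithelial genes higher in the trachea were Col17a1, Col4a5, Itgav, Itgb4, Lama3, Lamb2 and Lamb3. Lamb3 was 18.3-fold (16.0 to 21.0) and Col4a5 22.8-fold (18.6 to 28.2) higher in tracheal Tomato cells. Itga6, Lamb1 and Lamc1 were lower there. Of 32 stromal genes, 7 were higher in the trachea, among them Col6a1 at 5.56-fold (5.20 to 5.94) and 4 cartilage collagens, and 13 were lower, among them Col3a1 at 24.4-fold (21.2 to 28.2). Col1a1, Col1a2, Dcn, Lum, Fn1 and Sparc were within the limits. These comparisons use the same 4 libraries as those between the sorts and are not independent of them.

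The other stromal members were low. Col5a1 was at 53 and 123 and Col14a1 at 187 and 65 in the tracheal and gastric Tomato libraries, both at 0 in EGFP cells. Col5a2, a chain of type V collagen that starts fibrils, was at 217, Lama2, the laminin chain of muscle, at 69, and Col8a2, a chain of a short-chain collagen of vessels, at 60, each in gastric Tomato cells alone. Lama4, the laminin chain of vessels, was at 70 and 32 in tracheal and gastric Tomato cells. Col25a1, a transmembrane collagen, was at 114 in tracheal Tomato cells alone, and Col23a1, of the same kind, at 31, 321, 9 and 5 in tracheal EGFP, tracheal Tomato, gastric EGFP and gastric Tomato cells. Col15a1, a basement membrane collagen, stood at 0, 87, 165 and 95.

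Enzymes that build collagen were lower in part. Of the collagen processing list 15 genes were measured in the trachea, with 3 higher, 8 lower and 4 neither in EGFP cells, and 11 in the stomach, with 1 higher, 5 lower and 5 neither. Beside this, 25.2% of all genes measured were higher and 32.4% lower in the trachea, and 14.8% and 22.4% in the stomach. The lowest tracheal ratios were those of P3h2 (log2 -11.51), a prolyl hydroxylase, Bmp1 (-8.29), a procollagen proteinase, and Loxl3 (-7.52), a crosslinking enzyme. The highest were those of P4ha1 (5.93), Plod3 (4.31) and Plod1 (2.27), which hydroxylate proline or lysine. In the stomach Bmp1 (-8.01), Loxl1 (-7.87) and Pcolce (-7.51) were lowest, and Pcolce2 (2.11), Plod3 (0.03) and Colgalt1 (-0.03) highest. Plod3 stood at 1071, 53, 510 and 498 in the 4 libraries, and Pcolce, the enhancer of procollagen cleavage, at 39, 3375, 9 and 1828.

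Of other matrix protein genes, 12 of 14 measured were lower and 1 higher in tracheal EGFP cells. In gastric EGFP cells 16 of 18 were lower and 0 higher. Of all genes measured, 32.4% were lower in the trachea and 22.4% in the stomach. The lower genes were all under the minimum of 50 in EGFP cells, with Thbs1 highest in the trachea, at 18, and Bgn in the stomach, at 28. They entered through the Tomato library alone, so their direction, though not its 4-fold size, was fixed by entry. Their likeness to the stromal members is no separate support. In the trachea Fbln2 (-11.78), Mgp (-11.10) and Fmod (-9.72) had the lowest log2 ratios, and Tnc (6.44), Agrn (-0.86) and Thbs1 (-4.32) the highest. Tnc, which encodes tenascin, stood at 781, 8, 0 and 60. In the stomach Vtn (-10.47), Mgp (-9.18) and Mfap4, at 0 in EGFP and 511 in Tomato cells, were lowest, and Agrn (1.56), Thbs1 (-1.71) and Mfap5 (-3.91) highest.

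Intracellular partners of integrins were mixed. Of the adaptor list 11 genes were measured in the trachea, with 3 higher and 6 lower, and 14 in the stomach, with 0 higher and 6 lower. All genes measured were 25.2% higher and 32.4% lower in the trachea, and 14.8% and 22.4% in the stomach. The tracheal share of adaptors that were higher, 27.3%, was near that of all genes. Fermt2 (9.02), which activates integrins, Bcar1 (2.59) and Zyx (2.47), proteins of focal adhesions, had the highest tracheal log2 ratios, and Fermt1 (-9.03), Tns1 (-7.61) and Tln2 (-6.36) the lowest. In the stomach Ptk2 (1.33), Zyx (1.22) and Pxn (1.13) were highest, and Parvg (-8.03), Tns1 (-6.69) and Fermt2 (-5.71) lowest. Fermt2 stood at 517, 0, 6 and 366 and so went in opposite directions in the 2 tissues.

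Matrix receptors other than integrins were measured for 6 genes in each tissue, with 4 lower in tracheal and 2 lower in gastric EGFP cells and 0 higher. The lower share of all genes measured was 32.4% in the trachea and 22.4% in the stomach, and the higher share 25.2% and 14.8%. Sdc1 (-12.46), a syndecan, Ddr1 (-7.43), a collagen receptor kinase, and Dag1 (-2.58), the laminin receptor dystroglycan, had the lowest tracheal log2 ratios, and Bcam (-1.18), Sdc4 (-1.33) and Cd44 (-2.56) the highest. In the stomach Bcam (-5.98), Ddr1 (-3.61) and Sdc1 (-1.03) were lowest and Sdc4 (1.46), Cd44 (0.63) and Dag1 (0.16) highest.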

How the data were processed

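Expression was measured by RNA-seq, after full-length cDNA amplification with a SMART-Seq kit, in 1 library for each sort and tissue. Per the study's methods, the authors used Reaper for trimming, STAR 2.4.0a for alignment to GRCm38 and featureCounts 1.4.5-p1 for counting on exons. Reads with several positions, or lying in more than 1 gene, were not counted. The deposited value, a score here called a normalized count, is a read count divided by a library factor and rounded. The origin of the factor was not given in the sources read, and it moves every gene of a library together.

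Groups came from sample titles. Of symbols listed on more than 1 line (116, Itgam among the members) the line with the highest sum was kept. The worth of 1 read was estimated from the spacing of the values 3 to 60, tested on simulated data, and used for exact binomial 95% intervals and a floor of 3 reads per library. Lengths and positions came from GENCODE annotation of GRCm38 and the promoter from RefSeq, where 59 of the 85 members had an entry. Ratios were log2((A + 1)/(B + 1)), called at 2 or -2 with 50 or more normalized counts in the higher library. No count model was run, since whole reads were not recovered. limma 3.58.1 in R 4.3.3 (trend, tissue as a block, log2(normalized count + 1)) was fitted to genes reaching 50 in any library, and p-values were adjusted by Benjamini-Hochberg over all of them. Alternatives were pseudocounts of 0.1 and 10, no minimum or one of 500, scaling to the same total or by the median of ratios, limma without trend or block, and thinning of all libraries to 6.2 M reads, the last chosen after seeing the data.

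Members at 500 or more in any library were named with all 4 values, members from 50 to under 500 where a sentence turned on them, and genes of each pathway list where they had the 3 largest or 3 smallest ratios. Members and lists were chosen with earlier results of these data known. The results of 1 member are not reported here.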

Additional observations from a re-analysis of the deposited data

Results flagged for a closer look

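Itgb2 was singled out because its EGFP to Tomato difference had opposite directions in the 2 tissues, with a log2 ratio of -11.16 in the trachea and 3.71 in the stomach. With 1 library per group this difference between the tissues was not tested.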

How the results depend on the processing

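A minimum of 500 left 2 members higher and 15 lower in tracheal and 1 and 9 in gastric EGFP cells. Of all genes measured, 22.1% were then higher and 27.8% lower in the trachea, and 14.5% and 13.2% in the stomach. Between tissues it left 1 member higher and 1 lower in EGFP and 10 and 5 in Tomato cells. Of all genes, 17.3% and 18.8% were so in EGFP and 23.2% and 15.5% in Tomato cells. With this minimum the median over epithelial adhesion genes was -6.09 in the trachea and turned to 0.54 in the stomach, where fewer genes remain. No minimum gave 8 members higher in tracheal EGFP cells, beside 22.6% of all genes. Between EGFP libraries it gave 10 higher and 24 lower, beside 16.4% and 30.7% of all genes. The gastric epithelial median was then -1.50. A pseudocount of 10 moved the stromal medians to -3.43 and -3.53. Thinning moved the gastric epithelial median to -1.48 and the members lower in the trachea among Tomato cells to 11, beside 25.4% of all genes. limma called 0 members with no minimum, without the tissue block or without the trend, against 6 as reported. The cause of these shifts was not tested. Other values for these counts and medians, 69 in number, kept their direction and stayed within their limits. Of the values for single genes, 579 kept their call, 72 missed the limits and 0 reversed, and 51 of the 72 came from the minimum of 500. Scaling to the same total shifted the log2 scale by 0.58 in the trachea and 0.18 in the stomach, less for genes at 0. In the trachea Col3a1 then missed the ratio limit at -1.82, while Col2a1 (-5.58), Col5a1 (-5.50) and Lama3 (-5.50) fell under the minimum of 50. The tissue block pairs both sorts within a tissue, and the labels give no replicate numbers for any other pairing. The depth of the tracheal EGFP library limits what its zeros show.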
